A study of Mus musculus with 12 samples.

Results

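Arc, Homer1, Nptx2 and Rheb are synaptic genes that strong neuronal firing induces, though their induction was not measured here. They were examined for binding of c-Fos in CA1 excitatory neurons after kainic acid. Homer2 and Homer3, relatives of Homer1, and Nptx1 and Nptxr, relatives of Nptx2, were examined with them. The 8 genes were taken by symbol from a RefSeq table holding 21523 protein-coding genes on the 20 chromosomes used, and every c-Fos peak with its midpoint inside a gene or within 100 kb of it was assigned to that gene. This gave 12 of the 3294 peaks on those chromosomes. The mice were C57BL/6 animals of 3 to 4 weeks with the genotype CaMK2a-Cre/+; LSL-Sun1-GFP/+, in which Cre driven from CaMK2a switches on a green nuclear envelope tag, and tagged nuclei of the hippocampal CA1 field were sorted by flow cytometry. The groups were kainic acid with a c-Fos antibody, kainic acid with IgG, PBS with a c-Fos antibody and PBS with IgG, each with 3 replicates, and tissue was taken 2 to 3 h after injection. CUT&RUN, in which an antibody guides a nuclease to cut out the DNA beside the bound protein, was run on 50000 nuclei per reaction. The data used were 1 list of peak positions for c-Fos against IgG after kainic acid, described by its name as replicated. It holds no signal and no value per library, so depth is unknown, no spread between replicates can be given, and peaks were not set against PBS. Whether the sorted nuclei carried pyramidal cell markers cannot be read from peak positions and was not tested.

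c-Fos pairs with Jun proteins to form AP-1, a transcription factor that binds DNA at the sequence TGANTCA and that neurons build after strong firing. Arc protein works with the endocytic machinery to remove AMPA receptors, the main fast glutamate receptors, from synapses. Homer proteins tie metabotropic glutamate receptors to Shank scaffolds and to calcium release channels, and a short, activity-induced form of Homer1 uncouples these links. Neuronal pentraxins are secreted or membrane-bound proteins that gather AMPA receptors at synapses. Rheb is a small GTPase that switches on mTORC1, a kinase complex that promotes protein synthesis.

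The promoter sequences are shown for the Homer genes and Rheb, the only ones of the 8 genes with a sequence available. The peaks separated these genes. The windows of Homer1 and Rheb lay whole within a c-Fos peak, whereas those of Homer2 and Homer3 did not. Each window runs from 250 bases before to 50 bases after a transcript start, is written 5′ to 3′ on the strand of the gene, and comes from RefSeq on GRCm38.p6, the assembly that mm10 represents. Of the 8 genes, 4 had such a window (Homer1, Homer2, Homer3 and Rheb). Capitals mark the letters TGACGT on either strand, which are part of the cAMP response element TGACGTCA. They would also mark the AP-1 letters TGANTCA, had there been any.
Homer1 (chr13:93303507-93303806, plus strand): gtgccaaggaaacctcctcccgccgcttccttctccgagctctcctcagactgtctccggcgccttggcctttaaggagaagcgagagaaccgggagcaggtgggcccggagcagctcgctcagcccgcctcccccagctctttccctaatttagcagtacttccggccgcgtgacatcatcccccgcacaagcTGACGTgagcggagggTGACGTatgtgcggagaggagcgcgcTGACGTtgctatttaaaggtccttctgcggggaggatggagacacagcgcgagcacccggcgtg
Rheb (chr5:24842312-24842611, minus strand): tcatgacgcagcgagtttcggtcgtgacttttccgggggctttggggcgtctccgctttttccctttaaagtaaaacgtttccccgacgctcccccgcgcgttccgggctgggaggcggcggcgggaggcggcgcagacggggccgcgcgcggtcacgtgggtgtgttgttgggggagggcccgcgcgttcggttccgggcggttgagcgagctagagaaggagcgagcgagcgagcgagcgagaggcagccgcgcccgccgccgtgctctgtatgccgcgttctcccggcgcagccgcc
Homer2, upstream start (chr7:81706876-81707175, minus strand): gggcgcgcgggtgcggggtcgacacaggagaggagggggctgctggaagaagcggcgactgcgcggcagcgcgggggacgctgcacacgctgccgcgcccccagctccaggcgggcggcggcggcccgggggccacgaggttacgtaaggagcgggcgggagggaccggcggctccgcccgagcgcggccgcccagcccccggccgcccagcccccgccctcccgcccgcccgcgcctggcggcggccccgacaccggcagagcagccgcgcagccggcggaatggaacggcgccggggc
Homer3 (chr8:70282749-70283048, plus strand): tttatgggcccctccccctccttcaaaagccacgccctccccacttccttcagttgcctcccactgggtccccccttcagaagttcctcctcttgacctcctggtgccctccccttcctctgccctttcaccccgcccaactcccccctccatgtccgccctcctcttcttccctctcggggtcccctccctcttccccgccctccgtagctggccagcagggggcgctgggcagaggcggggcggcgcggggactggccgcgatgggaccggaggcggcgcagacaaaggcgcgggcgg

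The Homer1 window held TGACGT at 3 places, at positions -56, -40 and -14 counted from the transcript start at 0. Among all 32619 promoter windows on these chromosomes, 7.56% held TGACGT at least once and 0.202% at least 3 times. Among the 298 windows that lay whole within a peak (0.914% of all), 21.1% held it at least once and 2.01% at least 3 times. The Rheb, Homer2 and Homer3 windows held no TGACGT. Shorter parts of the element, such as TGACG, were not counted, and the Rheb window holds TGACG near its upstream end. The full palindrome TGACGTCA contains TGACGT on both strands and so entered the counts above at a separate place for each strand. It occurred in none of these 4 windows, in 1.80% of all windows and in 8.05% of those within a peak. The AP-1 letters TGANTCA, searched on both strands and sharing no place with TGACGT, were absent from these 4 windows too. They occurred in 7.85% of all windows and in 19.1% of those within a peak. These letters describe the windows shown, and the peaks themselves extend beyond them. The downstream starts of Homer1 and Homer2 had a window as well, neither within a peak and neither with any of these letters.

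Peaks lay at or beside all 4 inducible genes. Of the inducible genes, 4 of 4 had a peak inside or within 100 kb, and of the family members, 3 of 4 had one. The background share, over all protein-coding genes, was 21.8%. The inducible genes had 8 peaks in their windows and the family members 4. What set the 2 groups of genes apart was how near the peaks came. The nearest peak midpoint was inside the gene at Arc and Homer1, 412 bp from the gene at Rheb and 2.44 kb from it at Nptx2. Among the family members it was 11.8 kb away at Nptxr, 22.4 kb at Nptx1, 24.4 kb at Homer2 and 566 kb at Homer3. The distances of the inducible genes and of the family members did not overlap, and their medians were 0.206 kb and 23.4 kb. The family members are relatives of Homer1 and Nptx2, so Arc and Rheb had no relative in this comparison. A peak inside the gene or within 2.5 kb was present at 4 of 4 inducible genes and 0 of 4 family members, against 6.38% of all protein-coding genes. A midpoint inside the gene itself was found at 2 of 4 inducible genes and 0 of 4 family members, against 5.52% of all genes. Within 10 kb the counts were again 4 of 4 and 0 of 4, and the share over all genes was 7.55%. That share grew with gene length. It was 3.04% for genes of 2 to 10 kb, the class of Arc and Nptx1, and 3.85% for genes of 10 to 20 kb, the class of Nptx2, Homer3 and Nptxr. It was 5.68% for genes of 20 to 50 kb, the class of Rheb, and 14.8% for genes of 50 to 200 kb, the class of Homer1 and Homer2. Because the genes were chosen with earlier results of this peak list known, these counts are a description and were not tested.

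**Figure D1:**
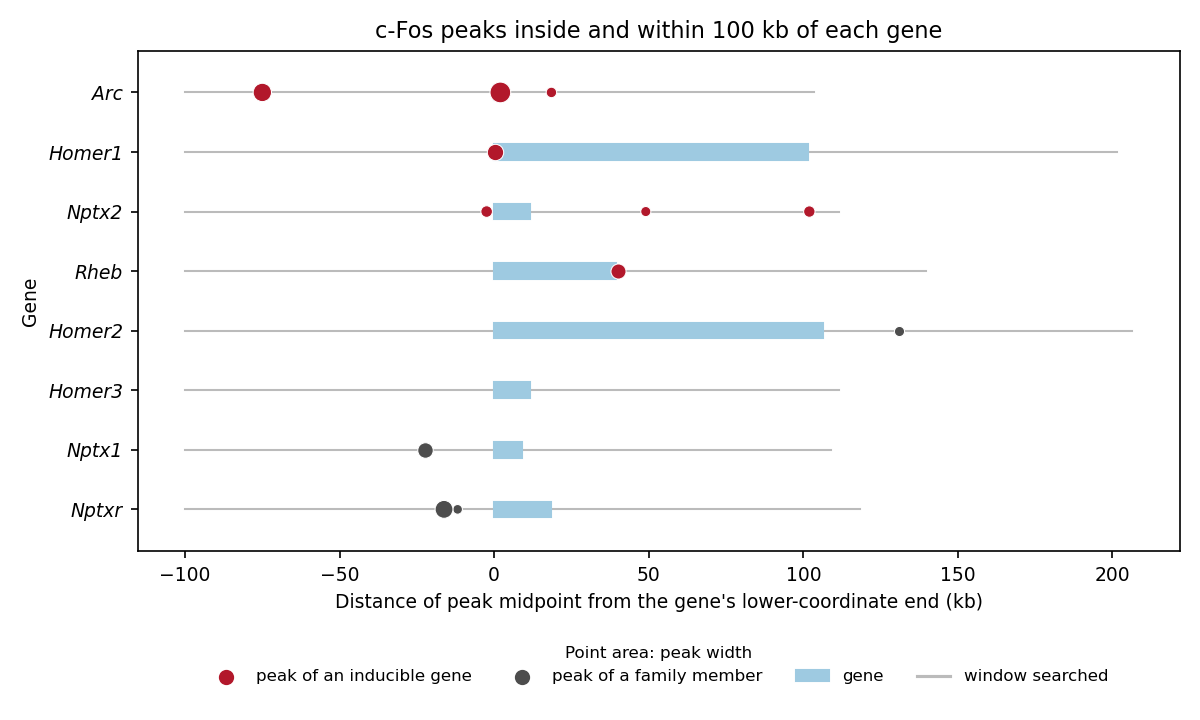
Positions of peak midpoints (points, area by peak width) relative to the lower-coordinate end of each gene, in kb, with the gene as a blue bar and the window searched as a grey line. The 4 inducible genes are at the top, with 8 peaks, and the 4 family members below them, with 4 peaks.

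**Figure D2:**
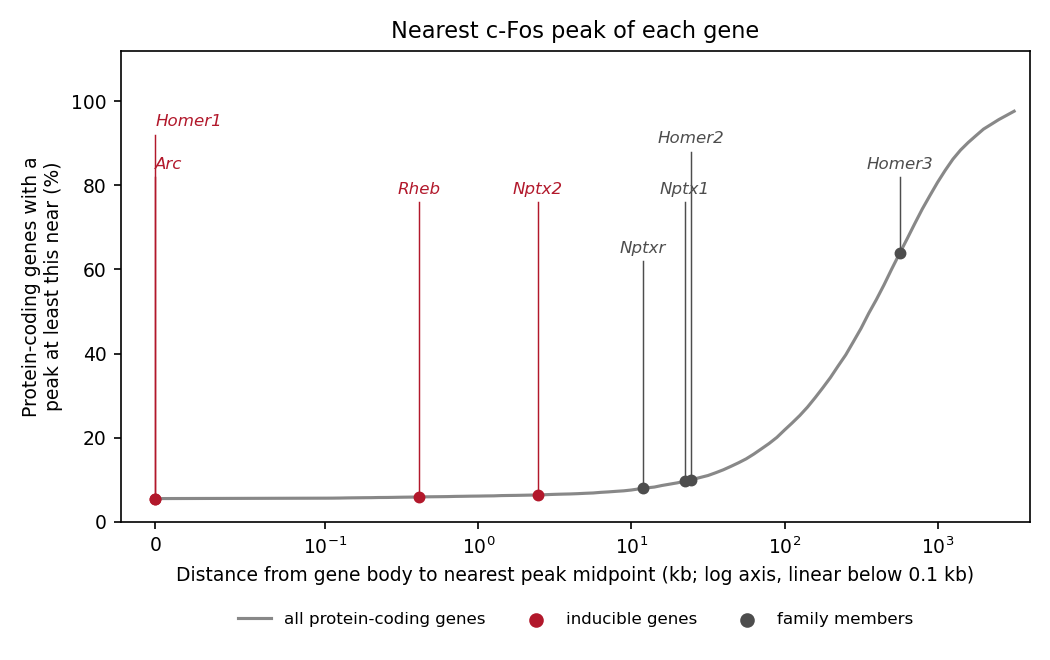
Percentage of all protein-coding genes with a peak midpoint at least as near as the distance on the horizontal axis (kb, log axis, linear below 0.1 kb), with the 8 genes marked on the curve. The inducible genes lie between 0 and 2.44 kb, and the family members between 11.8 and 566 kb.

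Arc was covered by a peak over nearly its whole length. The gene spans chr15:74669081-74672570, a length of 3490 bp, and the peak at chr15:74669102-74673057 covered 3469 of these bases (99.4%). It left 21 bases at the lower-coordinate end uncovered and ran 487 bases past the higher-coordinate end. At 3956 bp it was among the widest in the list, since 0.971% of all peaks were at least as wide. Of the 5261 protein-coding genes of 2 to 10 kb, 1 reached a covered share of 99.4%, namely Arc itself (0.019%). The 5 genes of that length closest to Arc by this measure were the zinc finger gene Zic2 (88.1% covered), the homeobox gene Nkx6-1 (80.3%), the forkhead genes Foxd1 (79.1%) and Foxb1 (67.0%), and the homeobox gene Otp (63.1%). The likeness is over 1 peak list and concerns covered length only. Genes shorter than 2 kb, which a narrower peak can cover whole, were left out of this comparison.

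Arc had 2 further peaks in its window. One of 1015 bp lay 15.0 kb beyond the higher-coordinate end (chr15:74687093-74688107), where the nearest gene by a small margin was Jrk, at 14.8 kb. The other, of 3108 bp, lay 75.0 kb beyond the lower-coordinate end (chr15:74592531-74595638) and 4.62 kb from Adgrb1, which encodes an adhesion G protein-coupled receptor. It too was wide for this list, with 2.46% of peaks at least as wide. A total of 3 peaks or more was found at 1.6% of all protein-coding genes, and at 0.722% of those of 2 to 10 kb. Of the 3 peaks, the central one was nearest to Arc itself and each of the other 2 was nearer to another gene.

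Homer1, the postsynaptic scaffold gene whose short form is induced by activity, had 1 peak, and it sat on the upstream transcript start. The gene spans chr13:93303757-93405129 on the plus strand. The peak of 2474 bp (chr13:93302781-93305254) extended from 976 bases before that start to 1497 bases after it, and so contained the promoter window printed above. It ended 2780 bases short of the downstream start in the promoter table. Of all peaks, 6.34% were at least as wide. The remaining length of the gene held no peak, and the next peak lay 303 kb away on the lower-coordinate side. No other protein-coding gene lay within 100 kb of the Homer1 peak.

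Among the 909 protein-coding genes with exactly 1 peak midpoint inside, 104 (11.4%) had it within 1 kb of a gene end, as Homer1 did at 260 bp. The 5 such genes closest to Homer1 in length were Lims1, Vps35l, Adck1, Agpat4 and Rbpj, all 101 to 102 kb long. In these 5 genes the peak lay farther inside, 7.22 kb (Agpat4) to 41.1 kb (Lims1) from the nearest gene end.

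Rheb, the activator of mTORC1, had 1 peak as well, and it also spanned the transcript start. The gene runs on the minus strand over chr5:24802823-24842361. The peak of 2102 bp (chr5:24841723-24843824) reached from 1463 bases before the start to 638 bases after it, with its midpoint 412 bases upstream. Of all peaks, 11.6% were at least as wide. It stood alone, with the next peaks 4.17 Mb away on the lower-coordinate side and 2.61 Mb away on the higher-coordinate side. A nearest neighbour at least that far was found for 34 peaks (1.03%), and the median peak had its nearest neighbour 129 kb away. The Homer1 peak was less isolated, since 30.8% of peaks had a neighbour as far or farther. Promoter windows lying whole within a peak made up 1.01% of the 21045 windows of protein-coding genes. The Homer1 upstream and Rheb windows were among them, and the windows of Homer2 and Homer3 were not.

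Nptx2, which encodes a secreted pentraxin induced by activity, had 3 separate peaks, none of them touching the gene. The gene spans chr5:144545887-144557478. The nearest peak (chr5:144542828-144544068, 1241 bp) had its midpoint 2.44 kb beyond the lower-coordinate end of the gene. A peak of 944 bp lay 37.5 kb beyond the higher-coordinate end (chr5:144594458-144595401), and one of 1203 bp lay 90.4 kb beyond it (chr5:144647232-144648434). All 3 were narrower than the median peak of the list, 1341.5 bp. Nptx2 was the nearest protein-coding gene to 2 of them, whereas the most distant lay closer to the predicted gene Gm52796. Among protein-coding genes of 10 to 20 kb, 0.948% had 3 peaks or more. The 90.4 kb of this last peak was also the greatest distance counted for any of the 8 genes. The nearest distances left out by the limit of 100 kb were 101 kb at Homer2 and 102 kb at Arc.

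**Figure D3:**
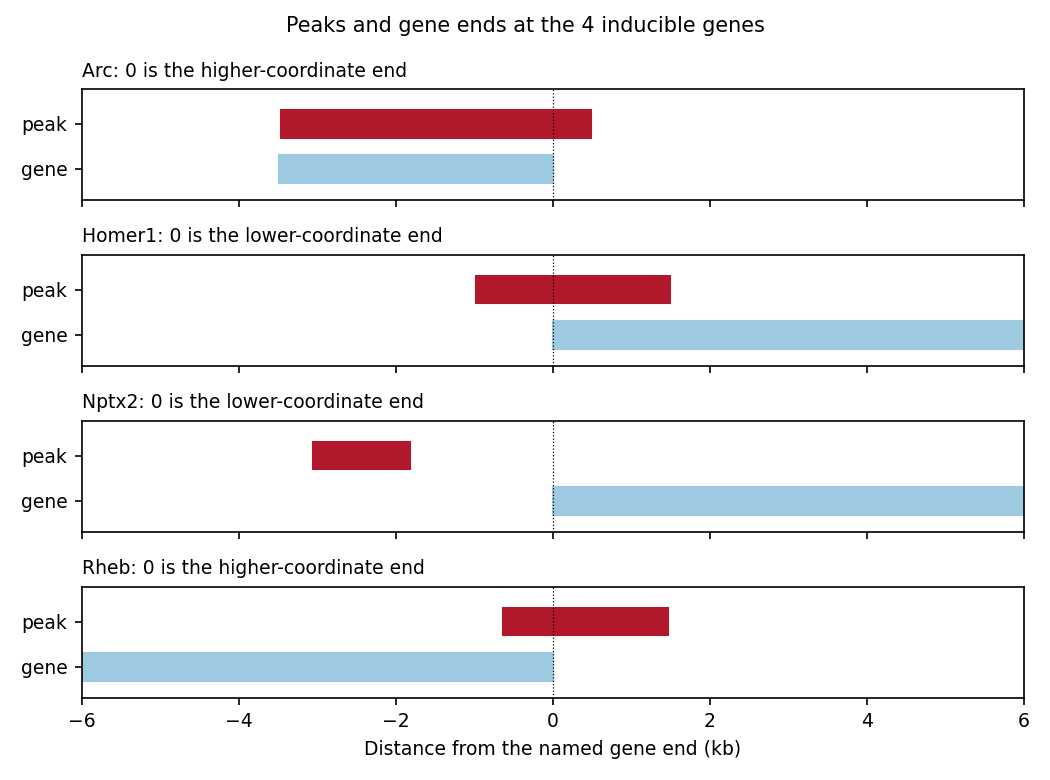
Peaks (red) and genes (blue) within 6 kb of 1 end of each inducible gene, with distance from that end in kb and lower coordinates at the left. The Arc peak covers 99.4% of the gene, the Homer1 and Rheb peaks span the transcript start, and the midpoint of the Nptx2 peak lies 2.44 kb outside the gene.

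Among the Homer relatives, Homer2 (chr7:81600481-81706925, 106 kb long and close to Homer1 in length) had no peak inside. Its only peak in the window was 950 bp wide (chr7:81730804-81731753) and lay 24.4 kb upstream of the start printed above. Homer2 was the nearest gene to that peak. Homer3 (chr8:70282880-70294361) had no peak within 100 kb, and the nearest lay 566 kb away. A peak at least as near as that of Homer3 was listed for 63.9% of protein-coding genes. None of the 11 other protein-coding genes within 100 kb of Homer3 had a peak within 100 kb either, against 21.8% of all protein-coding genes. This largely follows from the 566 kb to the nearest peak and is not a separate result. The Homer family thus held 1 gene with a peak on its transcript start, 1 with a distant peak and 1 with none in the window.

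The pentraxin relatives had peaks outside the gene and closer to a neighbouring gene. Nptx1 (chr11:119538719-119547820), a secreted neuronal pentraxin, had 1 peak of 2216 bp (chr11:119515229-119517444), 22.4 kb beyond its lower-coordinate end. That peak lay 4.87 kb from Endov, an endonuclease gene. Nptxr (chr15:79786351-79804709), the membrane-bound pentraxin, had peaks of 863 bp and 2943 bp, 11.8 and 16.2 kb beyond its lower-coordinate end. Of all protein-coding genes, 5.59% had at least 2 peaks in the window. The midpoints of the Nptxr peaks lay 4.39 kb apart at Dnal4, a dynein light chain gene. The wider peak was centred inside Dnal4 (chr15:79768658-79771600). The narrower peak overlapped the end of Dnal4, with its midpoint 52 bp outside (chr15:79774088-79774950). The table also lists Npcd, which begins at the same coordinate as Nptxr and extends past it, so peaks cannot be told apart between these genes.

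Across the 8 genes, the nearest gene to a peak was the inducible gene itself for 5 of its 8 peaks, and the family member itself for 1 of its 4 peaks. These counts follow in part from the nearest distances given above and from how closely genes are packed. The share over all genes was not counted, so they are not a further difference between the groups. Peak widths did not separate the 2 groups. The peaks of inducible genes ran from 944 to 3956 bp with a median of 1671.5 bp, and those of family members from 863 to 2943 bp with a median of 1583 bp. Peaks of at least 2 kb made up 4 of the 8 and 2 of the 4, and 14.4% of the whole list. The wide peaks of the inducible genes were the central and the lower-coordinate peak of Arc and the peaks at the starts of Homer1 and Rheb. Width is an extent set by the unknown calling threshold and was not read as binding strength.

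**Figure D4:**
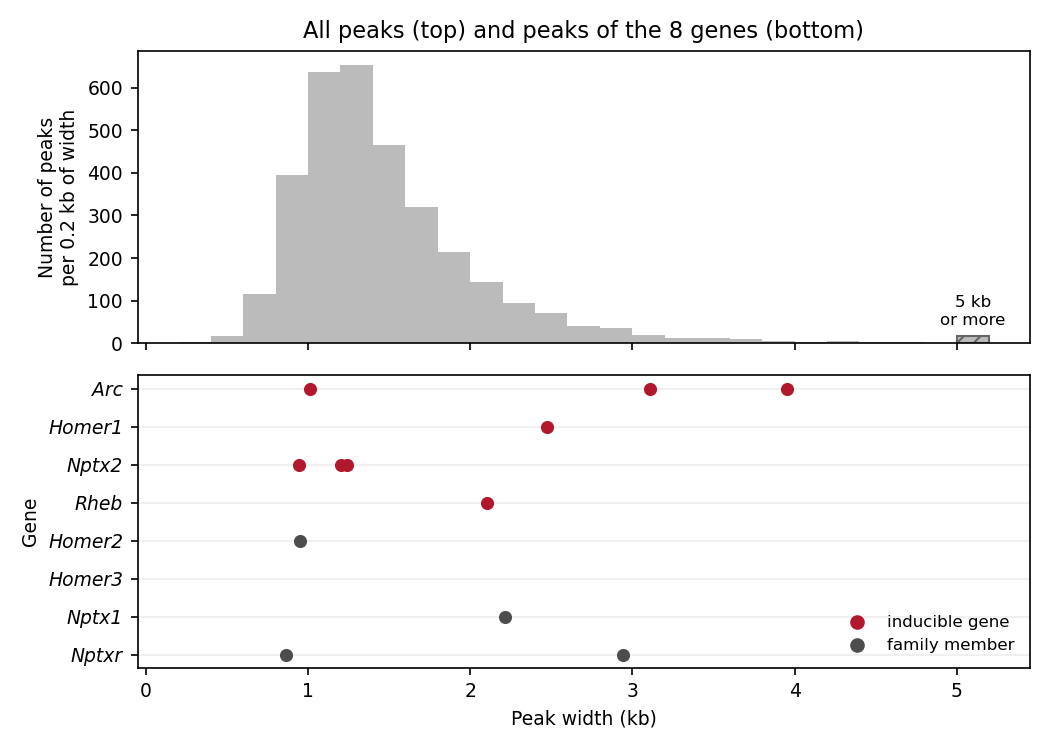
Number of peaks per 0.2 kb of width over the whole list (top, hatched for 5 kb or more) and the width in kb of each peak near the 8 genes (bottom). Arc has the widest peak among the 8 genes at 3956 bp, and Homer3 has none.

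The proteins encoded by these genes act through partners, and 56 partner genes were grouped by role and examined with the same window. A peak inside or within 100 kb was present at 19 of them (33.9%, against 21.8% of all protein-coding genes). Synaptic partners (receptors, scaffolds, calcium channels and endocytic proteins) had 16 of 36, and genes of the mTORC1 pathway 3 of 15. The synaptic partners are long genes, with a median of 126 kb, against 24.3 kb for the mTORC1 genes and 17.4 kb for all protein-coding genes. A longer gene offers more length for a peak: 29.5% of genes of 50 to 200 kb had a peak in the window, against 17.4% of those of 2 to 10 kb. For a peak inside the gene, the share was 5.52% over all protein-coding genes, 3.29% for genes of 20 to 50 kb and 42.4% for genes of at least 200 kb. The part of length in the counts below was not tested.

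Of the AMPA receptor subunits, the receptors that Arc and the pentraxins act on, 3 of 4 had a peak inside, in genes with a median length of 298 kb (42.4% of genes of at least 200 kb had one). Gria1 held 6 peaks, Gria2 and Gria3 held 1 each, and Gria4 had none within 100 kb, its nearest lying 108 kb away. Of 7 auxiliary subunits, 2 had a peak in the window and none inside, with Cnih3 at 61.2 kb and Cacng3 at 86.9 kb. The median length of these 7 genes was 110 kb. A peak in the window was present at 21.8% of all genes and at 29.5% of genes of 50 to 200 kb. Grm5, a metabotropic receptor gene whose protein Homer binds, held 1 peak in a gene of 551 kb. Of 6 calcium release channel genes, 2 held peaks, namely the IP3 receptor gene Itpr1 and the ryanodine receptor gene Ryr3 with 2 each. The median length of these 6 genes was 366 kb, and 42.4% of genes of at least 200 kb held a peak.

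The Shank scaffolds had peaks in 2 of 3 genes, with 1 inside Shank1 and 1 inside Shank2. A peak inside was found in 5.52% of all genes and in 42.4% of genes of at least 200 kb. Shank1 is 51.2 kb and Shank2 448 kb long. Among the PSD-95 and SAPAP scaffolds, Dlgap1 held 26 peaks and Dlgap2 held 6, in genes of 852 and 758 kb. The other 3 had none in the window, where 21.8% of all genes had one. Among 10 genes grouped as endocytic proteins or binding partners of Arc, with a median length of 82.0 kb, 4 had a peak in the window. The share was 21.8% for all genes and 29.5% for genes of 50 to 200 kb. The endophilin gene Sh3gl2 held 2 peaks, and its relatives Sh3gl1 and Sh3gl3 had none in the window. Which of these proteins bind Arc was not tested. Camk2b, encoding a calcium/calmodulin kinase subunit, and Wasf1, encoding an actin regulator, had their nearest peak 53.0 and 53.3 kb away.

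Genes of the mTORC1 pathway downstream or upstream of Rheb had a peak inside in 0 of 15 cases, near the shares of 5.52% for all genes and 3.29% for genes of 20 to 50 kb, the class that holds their median length. The nearest was 29.7 kb from Ulk1, an autophagy kinase that mTORC1 inhibits. Rptor, which encodes the mTORC1 scaffold Raptor, had its nearest peak at 86.6 kb, and this was the same peak that lay near Nptx1. The Rheb relative Rhebl1 had its nearest peak 131 kb away. The other pentraxin genes (Crp, Apcs, Ptx3 and Ptx4) had none within 100 kb, nor had Adam17, a protease.

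**Figure D5:**
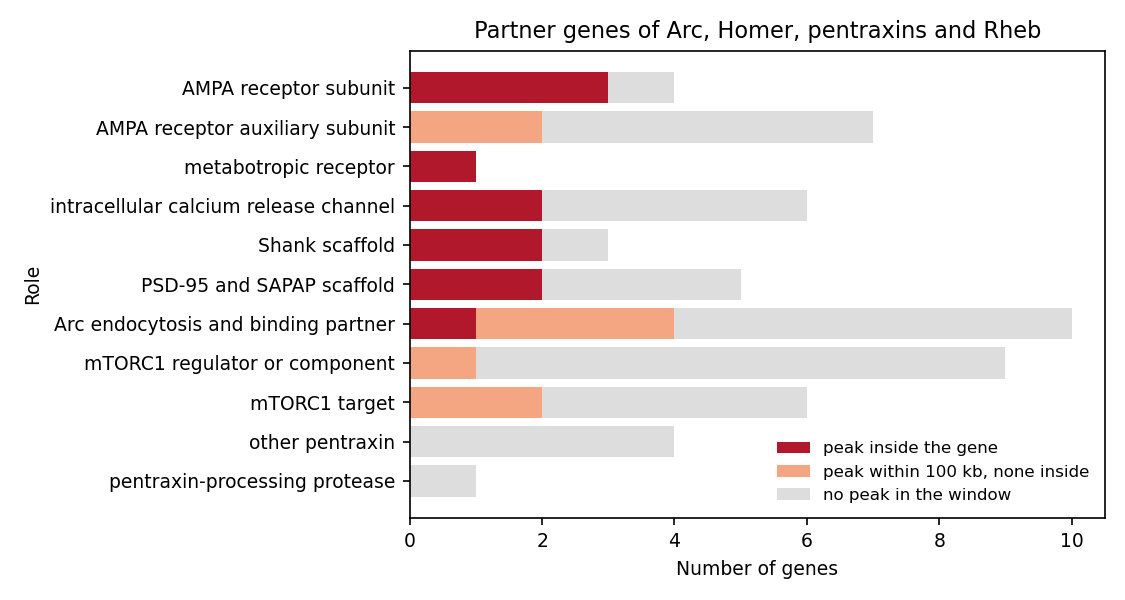
Number of partner genes in each role with a peak inside the gene (red), a peak within 100 kb but none inside (orange), or none in the window (grey). Of the 56 genes, 11 hold a peak inside and 19 have one in the window, against 5.52% and 21.8% of all protein-coding genes; gene length differs between the roles.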

How the data were processed

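The samples were 12 CUT&RUN libraries in 4 groups of 3, grouped by their titles. The submitters' processing notes name SEACR 1.1, bedtools 2.27.1, Bowtie2 2.2.9 and Trimmomatic 0.36, and the builds mm10 and sacCer3. What each tool did, with which settings, and how replicates were combined is not given in the sources used here. Deposited by the authors was a list of 3295 peaks with 3 columns (chromosome, start and end), without score, attached to 1 sample and treated here as a list of the whole group; 1 peak off the assembled chromosomes was left out. Read depth is unknown, and no interval or test over libraries could be made.

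Coordinates count from 1 on mm10. The gene table was that of RefSeq for GRCm38.p6, leaving out 108 protein-coding entries that start below 3000000. Strand and transcript starts were taken from a RefSeq promoter table where it lists the gene. A peak was placed by its midpoint. Counts per gene were made with Python 3.11.15 and pandas 2.3.3 and checked on genes with known numbers of planted peaks. The members, partner list and comparisons were chosen with earlier results of these data known; length classes, motifs and isolation measures were added after the positions and sequences were seen. Named were all 8 genes, partners with a peak inside or (up to 6) with the next nearest peaks, up to 5 genes most like Arc and Homer1, and the genes nearest to each peak. A few further genes were named after their values were seen (Gria4, Rhebl1, Adam17, the other pentraxins, Npcd and the neighbours among the other observations). A partner gene is not reported here and was left out of the counts. Alternatives were the peak edge, windows of 10, 50 and 250 kb, the wider peaks, merging within 500 bp, the nearest gene only, and gene ends.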

Additional observations from a re-analysis of the deposited data

How the results depend on the processing

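No paired analysis was possible because only positions shared by the whole group were used, and for the same reason no replicate could be left out. The 8 alternatives kept a peak at all 4 inducible genes except the wider peaks (3 of 4, without Nptx2, whose peaks are all narrower than the median). The family members with a peak numbered 3, except 0 with a window of 10 kb, 2 with the wider peaks and 1 with the nearest gene only. The difference between the groups, 1 gene in the main count, was therefore 4 genes with 10 kb and 3 with the nearest gene only, since peaks of the relatives are farther out or nearer to other genes. With 10 kb, 4 of the 8 genes had a peak, 4 peaks counted in all, and 11 partner genes had one, against 19 in the main count. Partner genes numbered 12 with 50 kb, 31 with 250 kb, 12 with the wider peaks and 11 with the nearest gene only. Peaks near the 8 genes numbered 6 with the wider peaks and 6 with the nearest gene only. Of 64 counts per gene, 46 equalled the main count. Peaks below the unknown threshold are missing from every count.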

Other observations

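Several other genes shared the peaks of the 8 genes. All 11 other protein-coding genes within 100 kb of Arc had at least 1 of the Arc peaks in their own window. Such sharing follows largely from choosing neighbours within 100 kb, here and around Nptxr below. The 11 genes included Adgrb1, with 4 peaks of which 1 lay inside. Lynx1, which encodes a modulator of nicotinic acetylcholine receptors, was another, with its nearest peak at 60.3 kb. Prkag2, which encodes a subunit of the energy sensor AMPK, had the Rheb peak as its only peak in the window, at 20.0 kb. Btbd1, near Homer2, had 1 peak inside that lay 101 kb from Homer2.

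Around Nptxr, 6 of 7 other protein-coding genes had the peaks at Dnal4 in their window, among them Sun2, a nuclear envelope protein gene, at 27.6 kb, and Cbx6, a Polycomb protein gene, at 49.4 kb. Crtc1, which encodes a coactivator of CREB and lies near Homer3, had its nearest peak at 666 kb. By position alone a peak shared by several genes cannot be assigned to any of them.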
